A study of Homo sapiens with 10 samples.

Results

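The DEAD-box and DEAH-box helicase genes were taken as all protein-coding genes of GRCh38 whose symbol begins with DDX or DHX followed by a digit. There were 54 of them among 20037 protein-coding genes, 38 named DDX and 16 named DHX, spread over 19 chromosomes. The study sequenced DNA immunoprecipitated (IP) through the FLAG tag of MYC from U2OS, a human osteosarcoma line, after knockout of the endogenous MYC gene. Doxycycline switched on 1 of 3 tagged proteins, the mutant 3A, the mutant 7A or the wild type (WT); the labels do not name the residues changed. The IPs of 3A, 7A and WT after 24 h at 1 µg/mL doxycycline are represented by 2 libraries per protein, as is the IP of WT without doxycycline, and each WT condition has 1 input library. All 10 libraries share the MYC knockout and a 10% admixture of mouse NIH3T3 cells as an outside reference, and whether the knockout line is 1 clone is not stated in the labels.

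MYC is a basic helix-loop-helix leucine zipper protein that binds DNA as a dimer with MAX, preferring E-box sequences at active promoters, and it is best known in growing cells for binding genes of ribosome production, RNA processing and metabolism. DEAD-box and DEAH-box proteins are named for letters in a conserved motif of their ATP-binding core. They use ATP to unwind short RNA duplexes, to strip proteins from RNA or to clamp onto it. Many assemble ribosomes in the nucleolus, others drive the steps of the spliceosome, and the rest work in RNA export, translation, decay, mitochondria, antiviral sensing or the germline.

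Each induced protein has 1 deposited peak list, of 845 peaks for 3A, 64 for 7A and 4749 for WT. A gene counted as bound when the summit of a peak lay within 1 kb of either end of the gene. With 1 list per protein there is no spread between replicates and no test between proteins. The Wilson 95% intervals below cover counting error over genes only. Fold enrichment is the authors' value of each peak over its own local background. It was not compared in level between lists. A gene without a peak had no site past the authors' threshold, which does not show that it was free of MYC. No peak list of the uninduced IPs was used here, so the uninduced level at these genes was not measured.

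3A had a summit at 12 of the 54 helicase genes (22.2%, 13.2 to 34.9%), 7A at 0, and WT at 32 (59.3%, 46.0 to 71.3%). Over all protein-coding genes the shares were 3.5% for 3A, 0.125% for 7A and 16.7% for WT. The comparison with all genes takes in genes that are silent in these cells, and gene activity was not measured here. All 12 genes bound by 3A were also bound by WT, as were 630 of the 701 protein-coding genes that 3A bound. Thus 37.5% of the 32 WT-bound helicase genes were kept in the 3A list (22.9 to 54.7%), where 18.8% of all 3352 WT-bound genes were kept. With peaks of −log10 q of at least 10 alone, 3A bound 6 helicase genes and WT 30, and the kept share was 20%, against 14.1% over all genes. At that threshold 3A bound 2.41% of all protein-coding genes and WT 16%. At the 7A share of 0.125%, 54 genes correspond to less than 1 bound gene, so the 0 says little about the family. The nearest 7A summit to any member lay 42204 bp from DHX58.

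**Figure D1:**
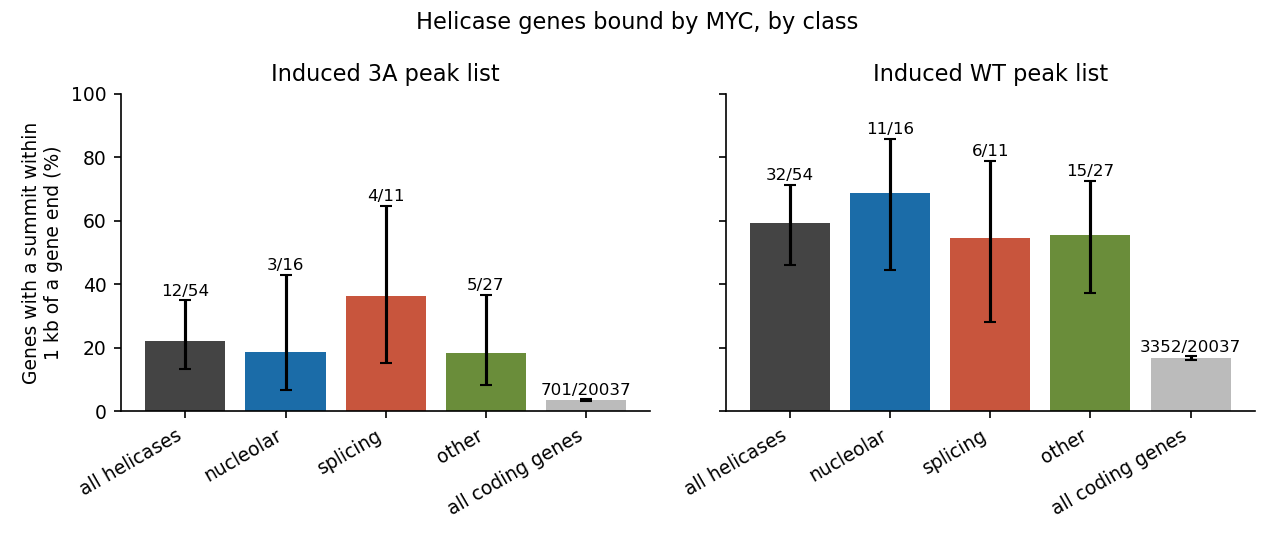
Share of helicase genes with a summit within 1 kb of a gene end in the 3A list (left) and the WT list (right), by class, beside all protein-coding genes; bars give percent, whiskers the Wilson 95% interval and labels the counts. Every class stands above the bar of all genes in each list, 3.5% for 3A and 16.7% for WT, and the intervals of the 3 classes overlap.

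Promoter sequences are shown for the strongest WT-bound gene of each class that 3A also bound and the strongest that it did not, among genes with a listed start within 1 kb of the WT summit. DDX21, DDX42 and DDX28 were kept by 3A, and DDX31, DHX35 and DDX3X were not. Each window runs from 250 bases before a transcription start to 50 after it, taken from RefSeq on GRCh38.p14 and written 5′ to 3′ along the gene. Capitals mark the E-box CACGTG, which reads the same on both strands, and the related CACGCG, which appears as CGCGTG where it lies on the opposite strand.
DDX21 chr10:68955920-68956219 (plus strand): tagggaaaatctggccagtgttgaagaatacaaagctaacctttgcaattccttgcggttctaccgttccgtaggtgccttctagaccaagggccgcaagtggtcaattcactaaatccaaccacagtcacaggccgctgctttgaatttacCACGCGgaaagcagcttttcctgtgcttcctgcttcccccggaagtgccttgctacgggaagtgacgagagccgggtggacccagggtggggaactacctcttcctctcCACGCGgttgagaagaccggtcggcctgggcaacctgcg
DDX42 chr17:63773920-63774219 (plus strand): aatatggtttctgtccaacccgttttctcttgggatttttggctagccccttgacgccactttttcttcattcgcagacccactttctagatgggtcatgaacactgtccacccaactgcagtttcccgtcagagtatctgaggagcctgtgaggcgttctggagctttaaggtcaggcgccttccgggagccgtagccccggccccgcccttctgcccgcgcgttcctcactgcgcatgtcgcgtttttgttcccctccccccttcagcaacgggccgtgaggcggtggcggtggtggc
DDX28 chr16:68023183-68023482 (minus strand): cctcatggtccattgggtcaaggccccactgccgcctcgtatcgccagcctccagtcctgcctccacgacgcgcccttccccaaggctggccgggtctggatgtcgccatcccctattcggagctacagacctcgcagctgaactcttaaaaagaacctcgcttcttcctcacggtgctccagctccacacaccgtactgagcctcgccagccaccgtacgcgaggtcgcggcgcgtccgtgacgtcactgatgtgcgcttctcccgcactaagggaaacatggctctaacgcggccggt
DDX31 chr9:132669934-132670233 (minus strand): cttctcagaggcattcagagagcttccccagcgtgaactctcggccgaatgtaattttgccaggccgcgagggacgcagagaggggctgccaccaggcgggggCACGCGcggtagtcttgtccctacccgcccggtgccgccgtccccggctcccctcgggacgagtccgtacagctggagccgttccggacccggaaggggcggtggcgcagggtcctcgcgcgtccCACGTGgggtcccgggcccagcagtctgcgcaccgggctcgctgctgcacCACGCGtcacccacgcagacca
DHX35 chr20:38962094-38962393 (plus strand): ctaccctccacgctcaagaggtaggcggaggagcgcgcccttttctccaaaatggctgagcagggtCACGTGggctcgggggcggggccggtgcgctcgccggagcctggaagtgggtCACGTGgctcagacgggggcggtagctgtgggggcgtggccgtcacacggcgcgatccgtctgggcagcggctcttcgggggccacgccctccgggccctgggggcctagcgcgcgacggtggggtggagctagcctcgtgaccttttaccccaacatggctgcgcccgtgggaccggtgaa
DDX3X chrX:41333058-41333357 (plus strand): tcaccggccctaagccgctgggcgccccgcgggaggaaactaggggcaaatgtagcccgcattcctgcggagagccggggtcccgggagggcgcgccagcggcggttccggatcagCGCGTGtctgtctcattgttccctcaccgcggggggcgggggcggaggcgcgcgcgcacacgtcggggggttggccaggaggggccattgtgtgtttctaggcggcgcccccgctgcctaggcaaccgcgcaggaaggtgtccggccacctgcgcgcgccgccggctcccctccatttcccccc

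In these few windows, chosen after values were seen, the position of the WT summit was set beside the motifs. Only the windows of DHX35 and DDX31 hold CACGTG. In DHX35, which encodes a helicase found in the spliceosome, the WT summit lay 187 bp before the start and 5 bp from the nearer of 2 CACGTG motifs. In DDX31, a nucleolar helicase gene, the summit lay 15 bp after the start and 35 bp from the single CACGTG. The DDX28 window holds neither motif, although its WT summit lay inside the window, 20 bp before the start. The windows of DDX21 and DDX42 hold no CACGTG. Their WT summits, at 57 and −314 bp from the start, fell just outside the windows, and that of DDX3X, at 258 bp, fell farther outside.

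Most helicase promoters holding CACGTG belonged to genes bound by WT alone. Windows were listed for 49 of the 54 genes, not for DDX18, DDX49, DDX52, DHX33 and DHX58. Of the kept genes with a window, 1 of 11 (9.09%) held CACGTG, namely DDX21, in the window of its second listed start. Of those bound by WT alone, 7 of 19 did (36.8%): DDX5, DDX31, DDX54, DHX32, DHX35, DHX37 and DHX40. Unbound members held it in 2 of 19 (10.5%), DDX25 and DHX34. Over all WT-bound genes the shares hardly differed, at 19.8% for 529 kept genes and 19.0% for 2277 bound by WT alone, and over all protein-coding genes with a window the share was 10.9%. CACGCG was found in 3 of 11 kept members, 10 of 19 bound by WT alone and 1 of 19 unbound, which are 27.3%, 52.6% and 5.26%. Over all genes it was found in 28.9% of kept genes, 31.3% of those bound by WT alone and 18.1% of all protein-coding genes. Overlapping matches were counted separately on both strands. Per single window the shares over all promoters of protein-coding genes were 8.34% for CACGTG and 14.3% for CACGCG. The difference within the family rests on few genes and was not tested.

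The WT summit lay within 100 bp of CACGTG in 5 of the 8 WT-bound members that hold it. The distances were 5 bp in DHX35, 11 bp in DHX40, 23 bp in DHX37, 35 bp in DDX31 and 94 bp in DDX5. DDX54 (360 bp), DDX21 (391 bp) and DHX32 (14965 bp) had summits farther off. In DDX21 the 3A summit was 537 bp from it. The motif was sought only in windows at listed starts, and WT summits also lay near starts (median 115 bp). These distances were not measured at other WT-bound genes, so no preference of the family for the motif is drawn from them.

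The 3 highest WT folds of the family were at nucleolar helicase genes, DHX33, DDX31 and DDX54. 3A bound 3 of the 16 (18.8%, 6.59 to 43.0%) and WT bound 11 (68.8%, 44.4 to 85.8%), so 3 of 11 were kept. DHX33, whose product associates with ribosomal DNA and RNA polymerase I, stood highest in both lists. Its fold was 6.65 in the 3A list, rank 11 of 845 peaks, and 17.3 in the WT list, rank 39 of 4749. The 3A peak spans chr17:5468625-5469150 and the WT peak chr17:5468315-5469216, and the summits lay 4 bp and 34 bp from the gene end. DDX21, a nucleolar helicase that links RNA polymerase I transcription with rRNA processing, had a fold of 3.54 in the 3A list and 8.48 in the WT list. DDX10, which works in early assembly of the small subunit, had 3.26 in the 3A list and 5.47 in the WT list.

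The other WT-bound nucleolar genes had no 3A summit, and some of them were strong WT sites. DDX31 had a WT fold of 13.3 (rank 107, chr9:132669439-132670756), and the nearest 3A summit was 678294 bp away. DDX54, a nucleolar helicase linked to the large subunit, had a WT fold of 10.4 (rank 287), with the nearest 3A summit at 747716 bp. These 2 sites outranked every other WT-bound helicase gene but DHX33. DDX55 (6.28), DDX51 (6.2), DDX56 (5.02) and DDX18 (4.90), linked to large subunit assembly, followed in the WT list. DHX37, which releases the U3 snoRNA during small subunit maturation, had 4.13, and DDX50, a paralogue of DDX21, had 3.81. Unbound in either list were DDX24, DDX27, DDX47, DDX49 and DDX52. DDX47, linked to small subunit assembly, had a WT summit 6765 bp inside the gene with a fold of 3.78. The WT summits nearest to DDX27, DDX49, DDX24 and DDX52 were 34232, 105293, 1076450 and 1210152 bp away.

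**Figure D2:**
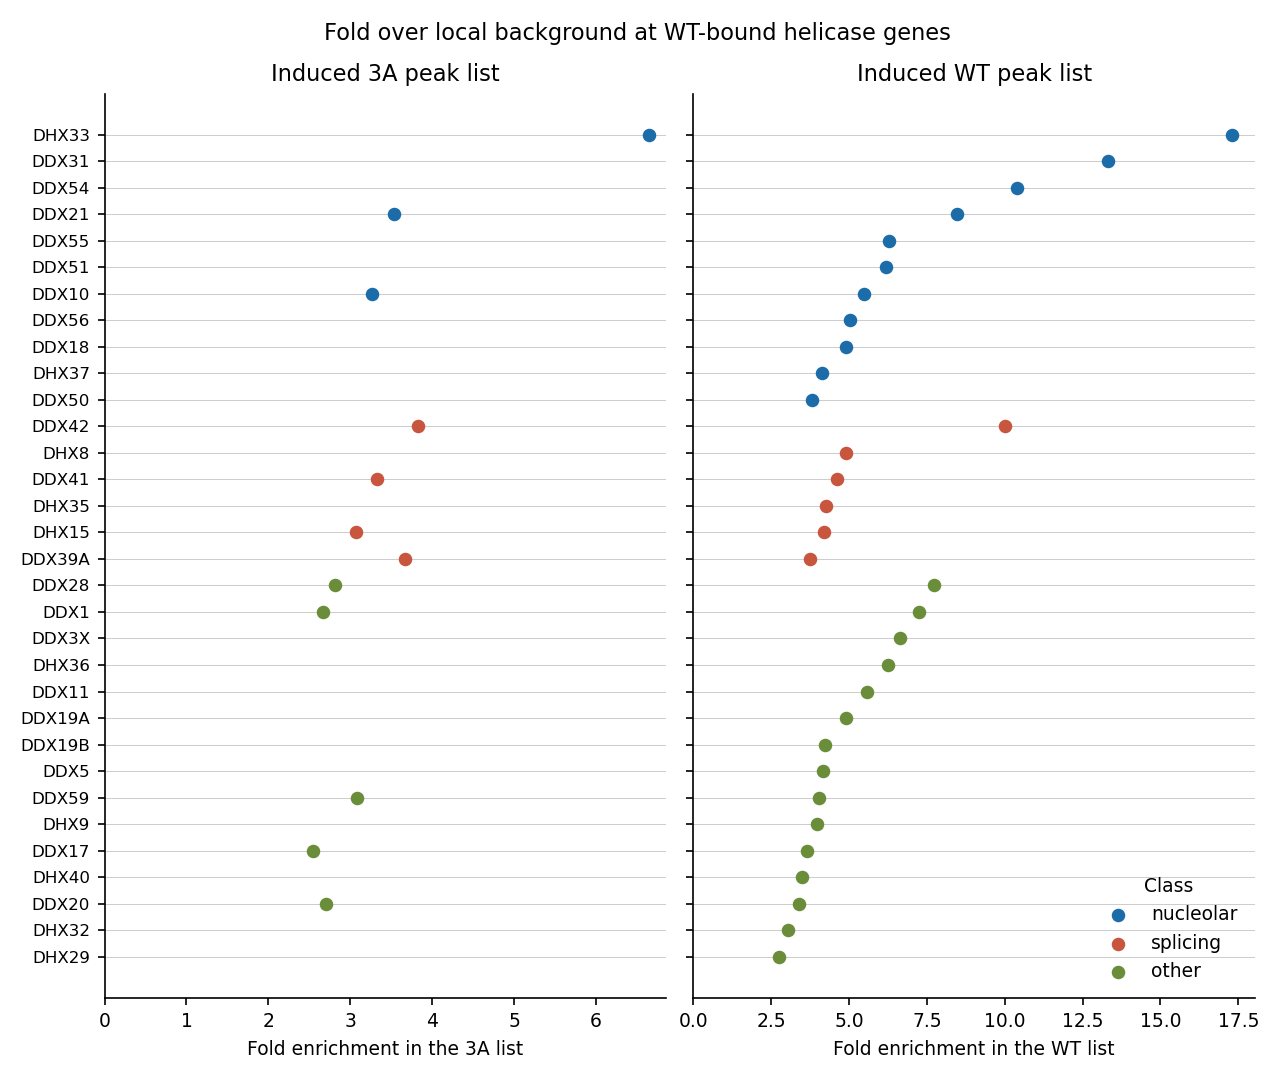
The authors' fold enrichment at the 32 WT-bound helicase genes in the 3A list (left) and the WT list (right), each with its own axis; each point is the highest peak within 1 kb of the gene, coloured by class, and a row without a point on the left had no 3A summit. DHX33 is highest in both lists (6.65 in 3A and 17.3 in WT), while DDX31 and DDX54 follow it in WT (13.3 and 10.4) and are absent from 3A.

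Among splicing helicase genes 3A bound 4 of the 11 (36.4%, 15.2 to 64.6%) and WT bound 6 (54.5%, 28 to 78.7%), so 4 of 6 were kept (66.7%, 30 to 90.3%). At a −log10 q of at least 10, 3A bound 2, DDX41 and DDX42, and WT still bound 6. Thus 2 of 6 were kept, where 14.1% of all WT-bound genes were. The interval is wide and overlaps that of the nucleolar genes (27.3% kept, 9.75 to 56.6%) and of the other genes (33.3%, 15.2 to 58.3%), so no order of the classes is drawn from it. DDX42, which associates with the SF3b part of the U2 particle, had a fold of 3.83 in the 3A list and 10.0 in the WT list. Its WT peak had the highest −log10 q of the family, 160, against 123 at DHX33. DDX39A, an mRNA export and splicing helicase, had 3.67 in the 3A list and 3.73 in the WT list. DDX41, a spliceosome-associated helicase mutated in inherited myeloid neoplasms, had 3.33 in the 3A list and 4.62 in the WT list. DHX15, which takes spliceosomes apart after splicing and also acts in ribosome assembly, had 3.07 in the 3A list and 4.19 in the WT list.

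DHX35 (WT fold 4.25) and DHX8 (4.91) were bound by WT alone. DHX8, whose product releases spliced mRNA, met the rule through its far end: the summit lay 970 bp past it and was also within 1 kb of ETV4, an ETS transcription factor gene. DDX23, DDX39B, DDX46, DHX16 and DHX38 had no summit in either list. They include helicases that act at successive steps of splicing, among them DDX46 and DDX23 in assembly and DHX16 and DHX38 in catalysis. Their nearest WT summits were 20450 bp from DDX46, 84935 bp from DHX38, 119278 bp from DDX23, and over 2 Mb from DDX39B and DHX16 (2079209 and 2948206 bp).

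Of the other helicase genes 3A bound 5 of the 27 (18.5%, 8.18 to 36.7%) and WT bound 15 (55.6%, 37.3 to 72.4%). They were described in 7 subgroups of 1 to 8 genes, assigned by hand, and no difference between subgroups was tested. In the subgroup of transcription and RNA processing 3A bound 3 of 5 (23.1 to 88.2%) and WT bound all 5 (56.6 to 100%). Over all protein-coding genes the shares were 3.5% for 3A and 16.7% for WT. With 5 genes grouped by hand, no result is drawn for this subgroup. At a −log10 q of at least 10, 3A bound 2 of the 27 other genes, DDX20 and DDX59, so that DDX20 alone remained in this subgroup. With DDX5, DDX17 and DDX20 counted as splicing genes, 3A bound 3 other genes. DDX1, part of the tRNA ligase complex, had a fold of 2.67 in the 3A list and 7.23 in the WT list. DDX20, part of the SMN complex that assembles splicing particles, had 2.70 in the 3A list and 3.40 in the WT list. DDX17, a transcriptional coregulator, had 2.55 in the 3A list and 3.65 in the WT list. DDX17 was the only member with more than 1 3A summit within 1 kb. Its paralogue DDX5 (4.17) and DHX9 (3.96), a nuclear RNA helicase, were bound by WT alone.

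Among genes of mRNA export, decay and translation 3A bound 0 of 8 (0 to 32.4%) and WT bound 5 (30.6 to 86.3%). As 3A bound 3.5% of all protein-coding genes and kept 18.8% of WT-bound ones, 0 among so few genes says little. DDX3X, which promotes translation of structured mRNAs, had a WT fold of 6.65 and the widest WT peak of the family, 2078 bp. DHX36, which unwinds G-quadruplexes, had 6.26. DDX19A and DDX19B, neighbouring genes for mRNA export helicases, had separate summits with WT folds of 4.89 and 4.24. DHX29, which helps ribosomes scan structured leaders, had the lowest WT fold of the family, 2.74. DDX6, a helicase of mRNA decay bodies, and DHX34, which acts in nonsense-mediated decay, were unbound. DDX3Y was counted as unbound too, but chromosome Y held no peak in any list. Its lack of a summit therefore says nothing about MYC at this gene.

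Of the 2 mitochondrial helicase genes, DDX28, needed for the mitochondrial large ribosomal subunit, was bound in both lists, with a fold of 2.82 in the 3A list and 7.73 in the WT list. DHX30, which binds mitochondrial transcripts, had no summit at its ends but had a WT summit 22001 bp inside the gene, with a fold of 5.19. DDX59, linked to ciliopathy, was kept, with 3.08 in the 3A list and 4.03 in the WT list. DDX11, a DNA helicase of sister chromatid cohesion (5.58), DHX40 (3.50) and DHX32 (3.04) were bound by WT alone, and DHX57 was unbound. No antiviral gene (DDX60, DDX60L and DHX58) and no germline gene (DDX4, DDX25, DDX43 and DDX53) had a summit in any list. Beside shares of 3.5% for 3A, 0.125% for 7A and 16.7% for WT over all genes, this says little for groups so small.

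Close paralogues did not share one pattern. DDX21 and DDX50 lie side by side on chromosome 10. DDX21 was kept, while DDX50 had its own WT summit (3.81 against 8.48 at DDX21) and no 3A summit nearer than the one at DDX21, 9234 bp away. DDX17 was kept and DDX5 was not. DDX39A was kept, and DDX39B was unbound in each list. DDX19A and DDX19B were both bound by WT alone.

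WT folds of kept helicase genes and of those bound by WT alone overlapped over most of their range. The 12 kept genes had WT folds of 3.40 to 17.3 with a median of 5.04, and the 20 genes bound by WT alone had 2.74 to 13.3 with a median of 4.89. Over all protein-coding genes the medians were 6.84 for 630 kept genes and 4.93 for 2722 bound by WT alone. The WT −log10 q had a median of 22.5 for kept genes and 28.4 for genes bound by WT alone, against 53.3 and 23.7 over all genes. WT peaks at kept genes had a median width of 1037.5 bp, and those at genes bound by WT alone 878 bp, against 999 and 846 bp over all genes. The lowest −log10 q of a kept gene was 13.3, at DDX39A, and the lowest of a gene bound by WT alone was 8.48, at DHX32.

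**Figure D3:**
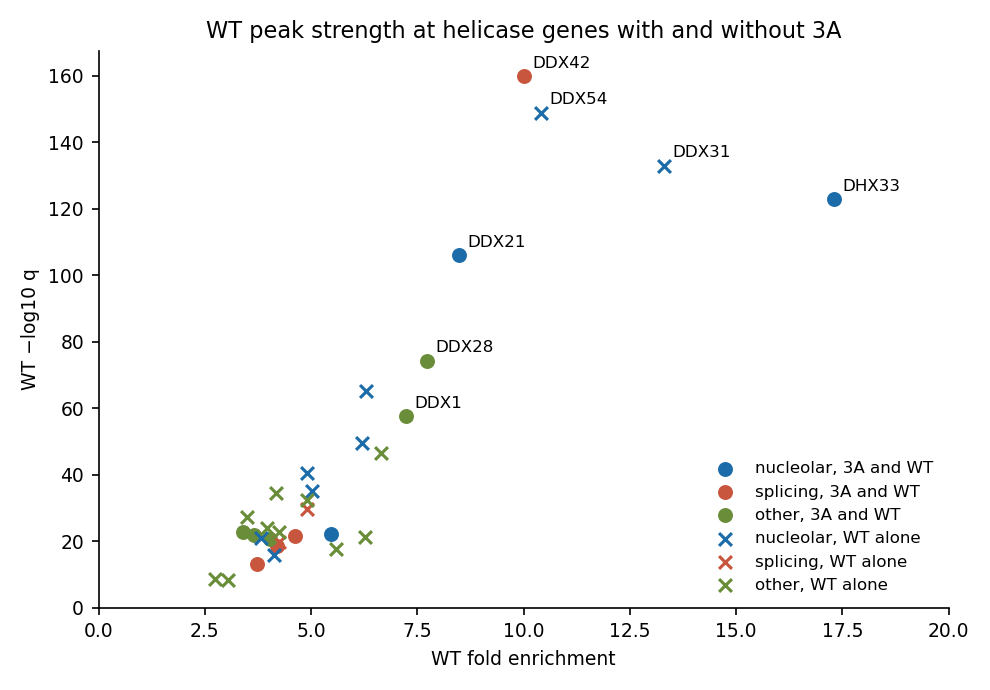
WT fold enrichment against WT −log10 q at the 32 WT-bound helicase genes; circles were also bound by 3A, crosses by WT alone, and colours give the class. Circles and crosses overlap over most of the range, with crosses alone below a fold of 3.4 and a circle alone above 13.3: DHX33 and DDX42 were kept at folds of 17.3 and 10.0, and DDX31 and DDX54 were not at 13.3 and 10.4.

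With all WT-bound genes split by WT fold into 3 groups of about equal size, the kept share of helicase genes was 5 of 14 (35.7%) in the lowest group, 2 of 7 (28.6%) in the middle and 5 of 11 (45.5%) in the highest. The same shares over all genes were 10.2%, 14.5% and 31.7%. In the lowest group, with WT folds of 2 to 4.42, the kept helicase genes were DDX17, DDX20, DDX39A, DDX59 and DHX15. Their 3A folds ran from 2.55 to 3.67, and only that of DDX39A was above the 3A list's median of 3.41. The median 3A fold of the 12 kept genes was 3.17, against 3.36 over all 3A-bound genes. The median WT fold of the 32 WT-bound helicase genes was 4.89, against 5.13 over all WT-bound genes.

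**Figure D4:**
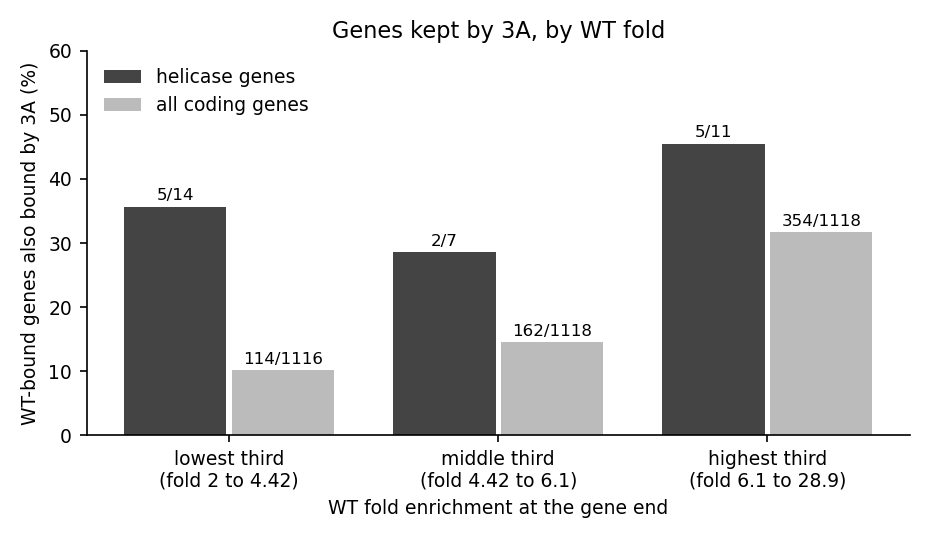
Share of WT-bound genes that 3A also bound, for helicase genes (dark) and all protein-coding genes (light), in 3 groups of WT fold set on all WT-bound genes; labels give counts. The dark bars stand at 35.7%, 28.6% and 45.5%, each resting on 7 to 14 genes, and the light bars at 10.2%, 14.5% and 31.7%. In the lowest group DDX17, DDX39A and DHX15 rest on 3A peaks with a −log10 q below 10.

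The 3A and WT summits at kept genes nearly coincided. The gap between them was 3 to 183 bp with a median of 65.5 bp, smallest at DDX28 and widest at DDX1, and it was at most 100 bp at 8 of 12 genes. All 12 WT peaks overlapped a 3A peak, and all 12 3A peaks were narrower. Their median width was 568 bp (476 to 1423 bp), against 1037.5 bp (748 to 1738 bp) for the WT peaks at the same 12 genes. The 32 WT peaks had a median of 903 bp (349 to 2078 bp). Peaks of the 3A list were narrower in general, with a median of 572 bp against 790 bp in the WT list. DDX21 and DDX42 had the widest 3A peaks, 1423 and 1177 bp, against 1738 and 1423 bp in the WT list.

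The rule places each summit within 1 kb of a gene end, and nearly all lay at the end that holds the start. Of the 11 genes bound by 3A with a listed start, all 11 had the summit nearer the start than the far end, and of the 30 bound by WT 29 did (96.7%). Over all genes the shares were 96.6% for 3A and 95.5% for WT, so this is no particular trait of the helicase genes. All 11 3A summits were within 1 kb of a listed start, at a median distance of 149 bp. For WT 27 of 30 were, and the median over the 30 was 115 bp. Over all bound genes 94.7% of 3A summits and 93.2% of WT summits were, with medians of 131 and 174 bp. The 3 helicase genes whose WT summit was not were DHX8, DDX19B and DHX32. DDX19B and DHX32 had their summit 397 and 115 bp from the end of the gene span, and at −5407 and −15078 bp from the nearest listed start.

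**Figure D5:**
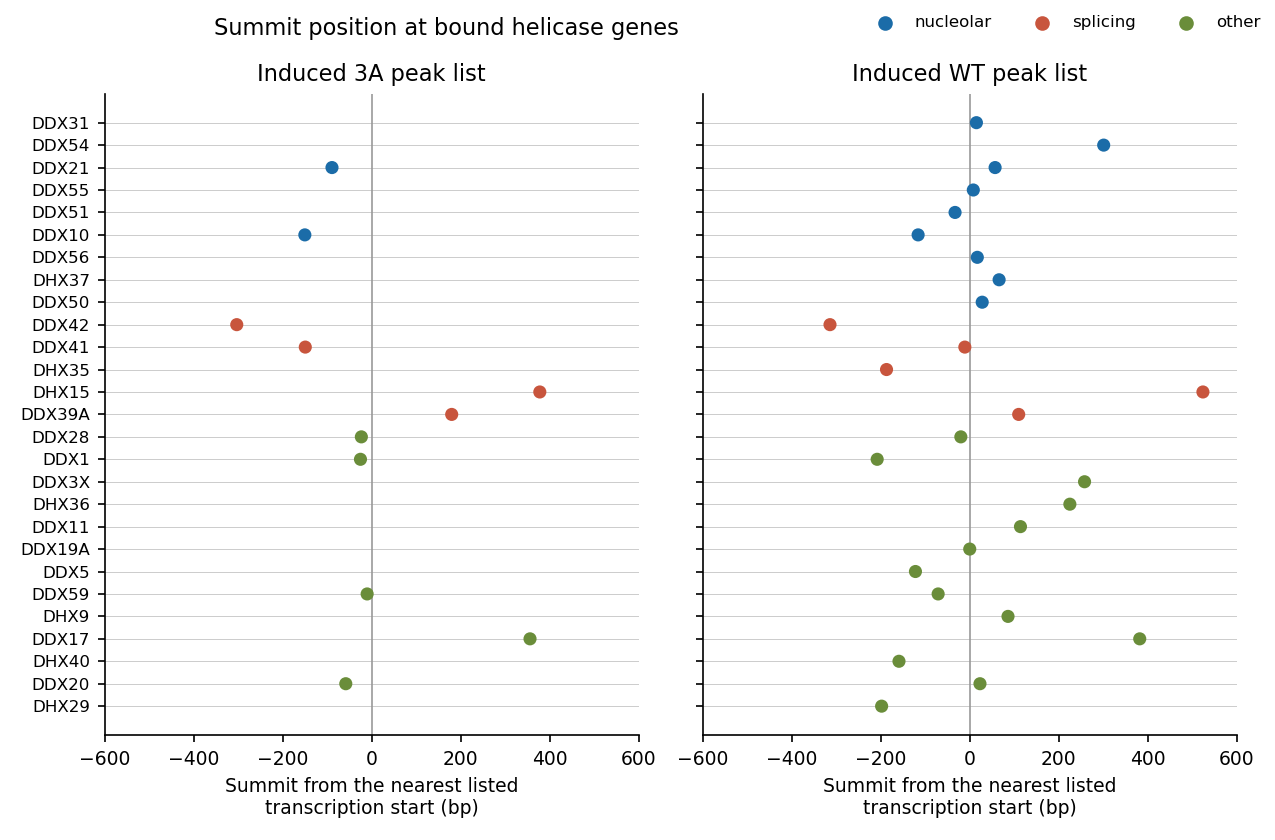
Distance of the summit from the nearest listed transcription start in the 3A list (left) and the WT list (right) at the 27 helicase genes with a WT summit within 1 kb of one; negative values are upstream and colours give the class. WT summits cluster around 0 on both sides, and DHX15 lies farthest downstream, at 378 bp in 3A and 524 bp in WT.

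Some of these summits also lay near a neighbouring gene. At 11 of the 32 WT-bound helicase genes (34.4%) the summit was within 1 kb of another protein-coding gene, close to the 33.2% of all WT-bound genes. DDX31 shared it with GTF3C4, a subunit gene of the RNA polymerase III factor TFIIIC, and DDX51 with NOC4L, a small subunit assembly gene. DDX28 shared it with the tRNA-modifying enzyme gene DUS2 and DDX19B with the alanyl-tRNA synthetase gene AARS1. At DHX29 the partner was MTREX, itself an RNA helicase gene. DDX54 (with RITA1), DDX20 (INKA2), DDX5 (CEP95), DDX42 (CCDC47), DHX32 (FANK1) and DHX8 (ETV4) completed the set. 3A kept 3 of these 11 genes, DDX20, DDX28 and DDX42, and 9 of the 21 whose summit lay near no other protein-coding gene. Over all WT-bound genes the kept shares were 21.2% for shared and 17.6% for unshared summits. The assay does not tell which gene of such a pair MYC acts on.

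Helicases and helicase partners outside the DDX and DHX names were counted in the same way. Of 25 RNA and DNA helicases with other names, 3A bound 4 (16.0%, 6.40 to 34.7%), 7A 0 and WT 9 (36.0%, 20.2 to 55.5%). Over all protein-coding genes the shares were 3.5% for 3A, 0.125% for 7A and 16.7% for WT. Of the 9 WT-bound genes 4 were kept (44.4%, 18.9 to 73.3%). The kept share was 37.5% for the DDX and DHX genes and 18.8% over all genes. A kept share at that level was thus not particular to the DDX and DHX names. EIF4A1, the helicase of cap-dependent translation initiation, had a WT fold of 8.93 and no 3A summit. Its paralogue EIF4A2 had 3.30 in the 3A list and 4.30 in the WT list. SUPV3L1, a mitochondrial RNA helicase, had 2.51 in the 3A list and 7.68 in the WT list. ZNFX1 had 2.84 in the 3A list and 5.51 in the WT list, and DICER1, which cuts microRNA precursors, had 2.94 in the 3A list and 4.81 in the WT list.

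Of 23 genes for G-patch proteins, a domain that in several of them activates DEAH-box helicases, 3A bound 2 (8.70%, 2.42 to 26.8%), 7A 0 and WT 6 (26.1%, 12.5 to 46.5%). SUGP2 (WT fold 17.1) and PINX1 (13.4), a nucleolar telomerase inhibitor, were bound by WT alone. GPATCH4, a nucleolar partner of DHX15, had 3.16 in the 3A list and 7.66 in the WT list, and ZGPAT had 2.36 in the 3A list and 4.24 in the WT list. CHERP had a WT fold of 4.47. Of the 6 WT-bound G-patch genes 2 were kept (33.3%, 9.68 to 70%), against 18.8% over all genes. The shares bound over all protein-coding genes, 3.5% for 3A and 16.7% for WT, lie inside the G-patch intervals. The intervals of the DDX and DHX genes and of both related lists overlap for 3A and for WT. For WT the overlap with the G-patch genes is narrow, 12.5 to 46.5% against 46.0 to 71.3% for the DDX and DHX genes.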

How the data were processed

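The authors deposited 1 peak list for each induced protein in the layout MACS2 writes, and the tools listed per the submitters' processing notes were MACS2, Picard, SAMtools, Bowtie2 and cutadapt, with hg38, hg19 and mm10 as builds and no version or role stated. Read depth is unknown, and for the control, the mouse reads and the joining of both libraries into a list the method was not given in the sources used here. The deposited fold enrichment is a ratio, IP signal over the local background at a summit. The deposited −log10 q is the peak's strength against that background.

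Here, summits were matched to ends of protein-coding genes on the numbered and sex chromosomes of a RefSeq table of GRCh38.p14, with positions counted from 1. Where several summits lay within 1 kb, the highest fold was used. Functional classes were assigned from general knowledge, and the members, classes and lists were chosen with earlier results of these data known. Values are given for every bound member, and for list genes that 3A bound or that ranked among the 4 highest WT folds; the start-based selection of promoters was set after values were seen. No test was run. The matching was tested on simulated data. Alternatives covered windows of 500 bp and 5 kb, −log10 q of at least 5 and 10, whole peaks, transcription starts alone, 1 gene end per summit, class membership and peak overlap. Python 3.11.15, numpy 2.4.6, pandas 2.3.3, statsmodels 0.14.6 and matplotlib 3.10.9 were used.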

Additional observations from a re-analysis of the deposited data

How the results depend on the processing

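Of 85 values recomputed under the alternatives, 80 stayed within 1.5 times the count given or within its 95% interval. The other 5 concern the 3A list. At a −log10 q of at least 10, 3A bound 6 helicase genes rather than 12, namely DDX20, DDX21, DDX41, DDX42, DDX59 and DHX33, and 20% of the 30 WT-bound genes were kept, against 14.1% of all WT-bound genes. Splicing and other genes bound by 3A were then 2 each, and nucleolar genes 2, where 3A bound 2.41% of all protein-coding genes. With DHX15 counted as nucleolar and DDX5, DDX17 and DDX20 as splicing, other genes bound by 3A were 3, splicing genes 5 and nucleolar genes 4. The cause of these changes was not tested, apart from the stricter threshold removing peaks and the regrouping moving genes. Some values within those limits changed too. With a window of 500 bp, WT bound 29 helicase genes, 4 of them splicing genes. 3A still bound 12, of which 11 were kept, where 19.1% of all WT-bound genes were. The WT summit at DHX15, 524 bp from the gene end, fell outside that window. The count for 7A was 0 in every alternative. With each summit given to its nearest gene end, 3A kept 11 of 28 genes, where 17.4% of all WT-bound genes were kept. With transcription starts alone it kept 11 of 27 (49 genes with a listed start), where 18.7% of all were kept. With an overlap of 50% or more of each peak, 9 were kept, and the share over all genes was not counted. No paired analysis was possible because each protein has 1 peak list, and for the same reason no replicate could be left out. The small classes limit every share.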

Other observations

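Genes named after helicases that do not encode a protein were set beside the family. Of 8 long non-coding RNA genes named for a DDX or DHX gene, 3A had a summit within 1 kb of 2, 7A of 0 and WT of 5. In each of the 5 the summit was that of the coding partner. DHX33-DT, the divergent transcript at DHX33, lay 114 bp from the 3A summit and 144 bp from the WT summit. DDX59-AS1 shared its summits with DDX59, and DDX11-AS1, DDX19A-DT and DHX9-AS1 shared WT summits with DDX11, DDX19A and DHX9. Which strand MYC acts on there was not measured. Of 35 pseudogenes of the family, 3A and 7A had a summit at 0 and WT at 1, DDX11L2 on chromosome 2, with a fold of 6.55 and its summit 670 bp from the gene end. DDX11L2 has near-identical copies elsewhere in the genome, and its value is uncertain. The shares over all long non-coding RNA genes and over all pseudogenes were not counted, so these counts are not read as high or low.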
